A study of Strongylocentrotus purpuratus with 10 samples.

Results

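The comparison described here sets brachyury morphant embryos against wild type control embryos at the blastula stage, 24 h after fertilisation, in the purple sea urchin (Strongylocentrotus purpuratus). It rests on 3 morphant and 3 control RNA libraries, 6 of the 10 libraries of the series, and on all 3542 genes of the differential table that the authors deposited for it. Morphants came from zygotes that each received 2 to 4 pl of a translation-blocking morpholino at 200 µM. The labels call the controls wild type, and they do not say whether those zygotes were injected with anything. In both groups polyA RNA of whole embryos was sequenced as paired reads of 100 bp, and the labels call the 3 libraries of each group biological replicates. The sources used here do not give the number of embryos or parents behind each library.

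Brachyury is a T-box transcription factor. In sea urchin embryos it is expressed at the vegetal plate and in the oral field, regions that form the gut openings, and in vertebrates its relatives are best known for mesoderm and notochord formation. A morpholino is a synthetic antisense oligonucleotide that, placed over a start codon, hinders ribosome assembly on the mRNA without cutting it. The morpholino and its reverse complement are shown because they define the perturbation, and the capitals mark CAT in the oligonucleotide and the ATG that each CAT pairs with.

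Morpholino: cgctCATtgcaggCATagtggcg

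Reverse complement: cgccactATGcctgcaATGagcg

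The oligonucleotide has 23 bases, and its reverse complement holds ATG at positions 8 and 17, counted from 1 at the 5′ end, 9 bases apart and so in the same reading frame. The start codon of the brachyury mRNA was not checked against it here.

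The authors' deposited table gives each gene a log2 fold change, a p-value and an adjusted p, and it holds no value per library, so no spread between libraries can be set beside any value. Every gene in it has an adjusted p under 0.05, and the sources used here do not give the number of genes the authors tested. The table's header does not say which group stands on top of the fold change. If morphant is divided by control, a negative value means less RNA in morphants and a positive value more, and if the ratio is inverted the reverse holds. Genes are therefore called negative or positive, and these words name the sign alone. In whole embryos, fewer cells of a type and less RNA per cell cannot be told apart. The sequencing depth of each library is unknown.

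Of the 3542 genes per the authors' deposited table, 1828 (51.6%) were negative and 1714 (48.4%) positive, and these shares are the background for every class below. The median log2 fold change was -1.19 among its negative genes and 0.93 among its positive ones, per the authors' deposited table. Brachyury itself (LOC576774) stood at 1.18 per the authors' deposited table, with an adjusted p of 8.71e-05, a value that does not check the knockdown because the oligonucleotide acts on translation. The marker lists of all 8 territories and cell types had members in the table, which holds only genes past the threshold. By the authors' deposited table, rows matching the skeletogenic markers numbered 5 negative and 1 positive, and those of aboral ectoderm 7 and 0. Rows of apical ectoderm markers numbered 3 and 0, and those of pigment cells and other mesoderm 1 and 5, per the authors' deposited table. In that pooled list the pigment cell markers had both signs, gcm at 0.76 and pks1 (LOC588806) at -1.60 per the authors' deposited table. Of the 6 endoderm markers 2 were in the authors' deposited table, FoxA at -0.67 and the hox11/13b gene (Hbox7) at 1.15, and of the 5 oral ectoderm markers also 2, Gsc at -1.68 and FoxG at -1.96. The ciliated cell marker FoxJ1 stood at 0.75 and the germ line marker vasa at -0.41 per the authors' deposited table. The class columns of the table cover part of it: 2011 genes carry a functional class, 388 of them the class Unclassified, and 2219 carry a GO term.

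Most functional classes leaned one way. Counting classes with 10 or more genes of the authors' deposited table, 31 of 48 had more negative than positive genes. Classes of protein synthesis, protein folding, energy metabolism, secreted proteases and membrane signalling had mostly negative genes, and zinc fingers, cell cycle regulators, helicases, kinesins and RhoGAP proteins mostly positive ones.

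**Figure D1:**
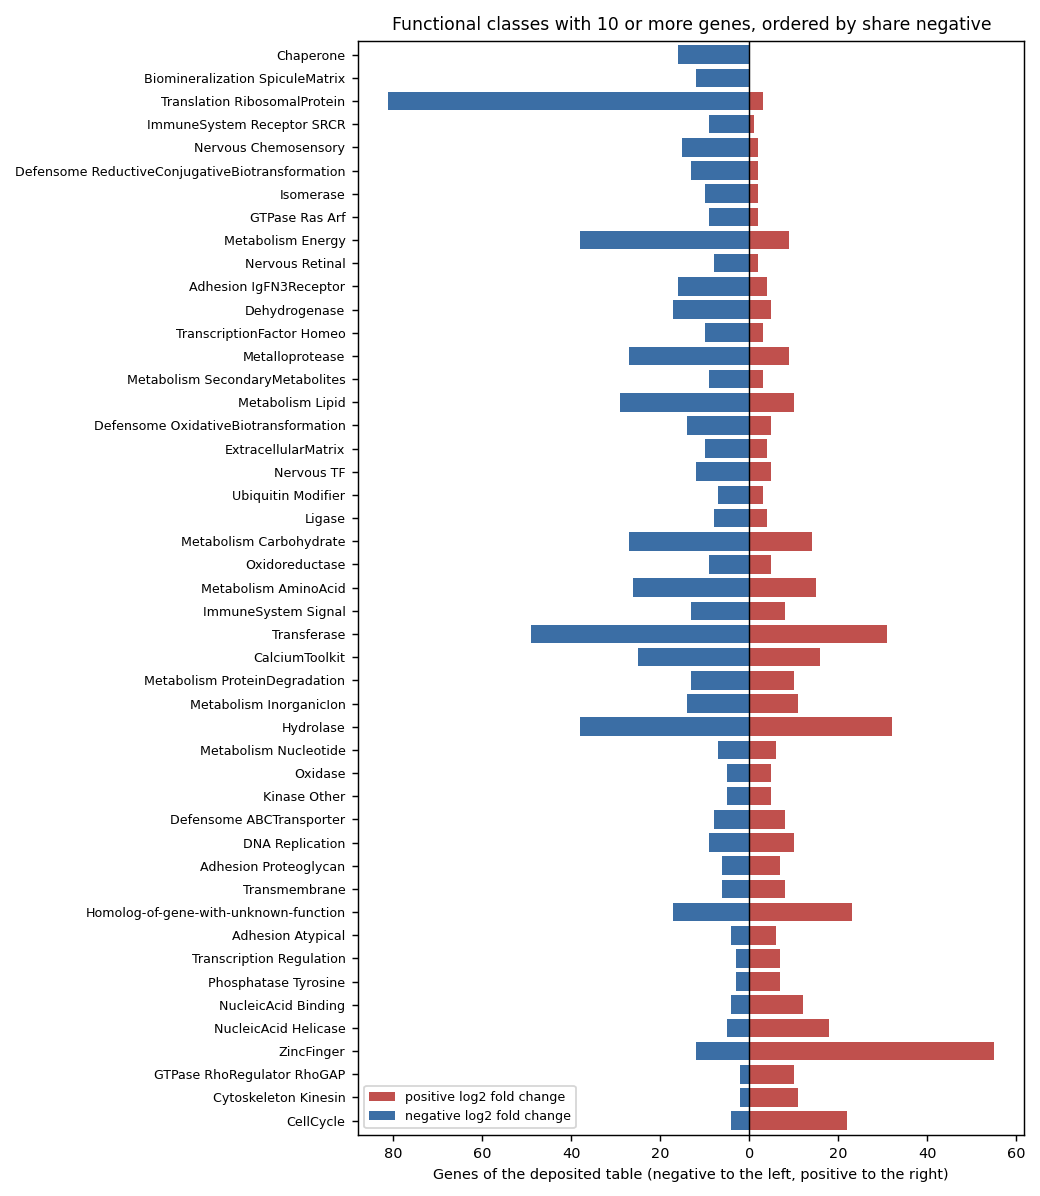
Number of genes with a negative (blue, left of 0) and a positive (red, right of 0) log2 fold change in each named functional class with 10 or more genes of the deposited table, ordered by the share that is negative. Chaperone (0 positive, 16 negative), spicule matrix (0 positive, 12 negative) and ribosomal proteins (3 positive, 81 negative) stand near one end, and CellCycle (22 positive, 4 negative), kinesins (11 positive, 2 negative), RhoGAP (10 positive, 2 negative) and zinc fingers (55 positive, 12 negative) near the other.

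Protein synthesis. The class of ribosomal proteins, the structural proteins of the ribosome, held 81 negative and 3 positive genes with a median log2 fold change of -1.21 per the authors' deposited table. Rpl32 (LOC115927475) stood at -2.21, a gene for ribosomal protein L12 (LOC579559) at -1.93 and Rps15 (LOC115920692) at -1.80 per the authors' deposited table. The 3 positive genes, all named because they are so few, were the mitochondrial ribosomal protein L11 gene (LOC580926) at 0.73, a copy of Rpl7a (LOC574574) at 6.13 and a gene without a description (LOC589123) at 2.27 per the authors' deposited table. Ribosomal proteins of mitochondria, encoded in the nucleus, were negative for 7 of 8 genes of the authors' deposited table, with a median of -1.18.

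Factors that run translation had the same sign. In the family of translation factors and tRNA ligases, 17 genes were negative and 2 positive, with a median of -0.73, by the authors' deposited table. A row described as translation elongation factor 2 (LOC115920562) stood at -2.01 with an adjusted p of 1.14e-23 per the authors' deposited table. That factor moves the ribosome along the mRNA, but the gene annotation types LOC115920562 as a transcribed pseudogene, and its description names another gene. The gamma subunit of elongation factor 1B (eef1G), part of the complex that recharges elongation factor 1 alpha, stood at -1.03, and the delta subunit of initiation factor eIF-2B (LOC753458) at -1.10 per the authors' deposited table. Genes of the nucleolus and ribosome assembly, matched by words, were negative for 11 of 15 per the authors' deposited table. They include fibrillarin (LOC752335), which methylates ribosomal RNA, at -1.43 and its copy (LOC591797) at -1.03 per the authors' deposited table. Copies described as nucleolar protein 4-like stood at -1.48 (LOC574645) and -1.41 (LOC115918560) per the authors' deposited table. A further negative row, LOC590740, is named Rps12 and is also counted in the class of ribosomal proteins.

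Protein folding and entry into the secretory pathway. All 17 genes with the GO term protein folding were negative per the authors' deposited table, between -1.69 and -0.54, with a median of -0.96. The functional class Chaperone likewise held 16 negative genes and no positive one, with a median of -0.89, per the authors' deposited table. Its members serve different compartments. Subunits of the cytosolic chaperonin, a ring that folds actin and tubulin among other proteins, included Cct3 (LOC574601) at -0.79 per the authors' deposited table. Chaperones of the endoplasmic reticulum included Hyou1 (LOC592339) at -1.32, Dnajb9 (LOC577618) at -1.37 and Dnajc3 (LOC588683) at -1.09 per the authors' deposited table.

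A wider group of endoplasmic reticulum proteins, assembled after the values were seen, held 25 negative and 3 positive genes with a median of -1.14 per the authors' deposited table. BiP, the main Hsp70 chaperone of that compartment (LOC584585), stood at -2.16 and the Hsp90 chaperone gp96 (LOC115919172) at -1.69 per the authors' deposited table. Calreticulin (calret), which binds calcium and newly glycosylated proteins, stood at -1.59 and the proline isomerase FKBP14 (LOC576614) also at -1.59, with an adjusted p of 1.65e-14 for FKBP14 per the authors' deposited table. The disulfide isomerases Pdia6 (LOC585584) and Pdia3 (LOC577673) stood at -1.77 and -1.64 per the authors' deposited table. Among components that admit and trim nascent chains, Ssr4 (LOC576685) of the translocon-associated complex stood at -0.91, Ssr3 (LOC762974) at -0.63, Ssr1 (LOC579604) at -0.46 and the signal peptidase subunit Spcs1 (LOC115917998) at -0.92 per the authors' deposited table. Outside the counted group, the oligosaccharyltransferase subunit Rpn2 (LOC578649), which helps attach sugars to nascent chains, stood at -1.09 per the authors' deposited table. The group's 3 positive genes were the one named Sec61g (LOC592604) at 1.96, Ssr2 (LOC587726) at 0.62 and ERp44 (LOC591674) at 0.39 per the authors' deposited table. Sec61g is a subunit of the protein-conducting channel. The name of LOC592604 comes from the name column alone, since its description is uncharacterized.

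**Figure D2:**
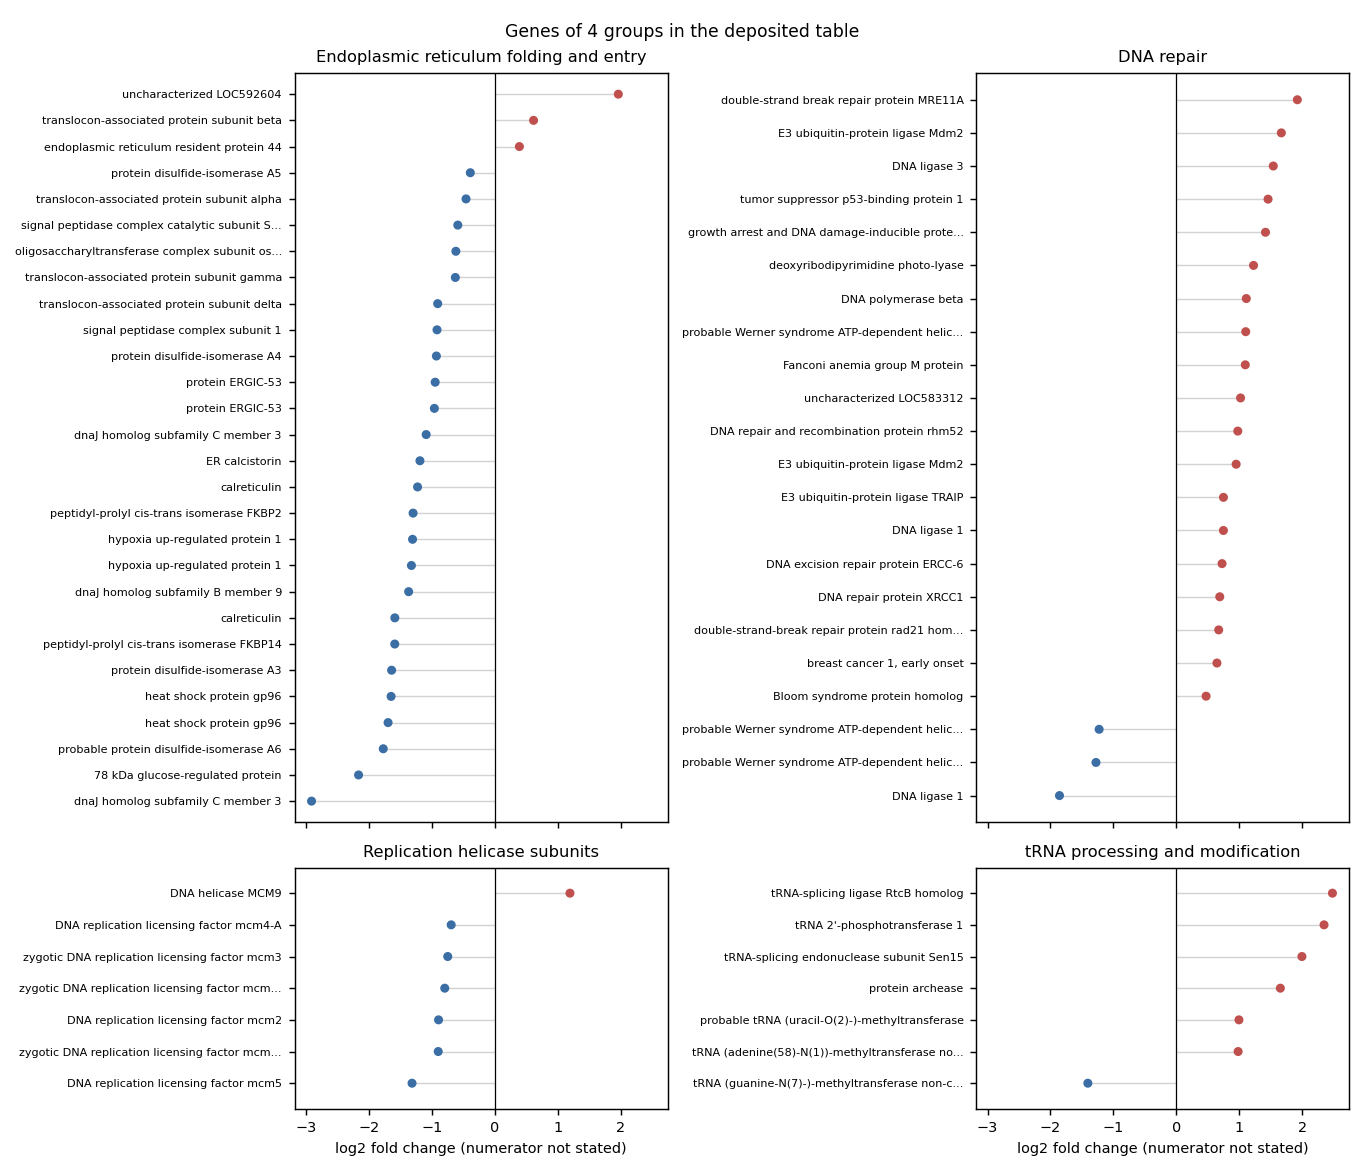
Log2 fold change of each gene in 4 groups assembled after the values were seen: endoplasmic reticulum folding and entry, DNA repair, replication helicase subunits, and tRNA processing and modification. Each point is a gene, labelled by its description, and the deposited table gives no error. The panels hold 25 of 28, 3 of 22, 6 of 7 and 1 of 7 negative genes.

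Energy, lipid and redox metabolism. The Metabolism_Energy class held 38 negative and 9 positive genes, with a median of -0.78, per the authors' deposited table. ATP-citrate synthase (LOC587157), which makes cytosolic acetyl-CoA, stood at -1.97 and the NADP-dependent malic enzyme (LOC575178), a source of NADPH, at -2.20 per the authors' deposited table. The uncoupling protein gene Ucp3 (LOC762676) stood at -1.66 and the ATP synthase subunit Atp5o (LOC115918937) at -1.43 per the authors' deposited table. Among the positive genes of the class, the mitochondrial carrier Slc25a16 (LOC584753) had the lowest adjusted p, with a log2 fold change of 1.19 per the authors' deposited table. The description family of mitochondrial proteins was negative for 66 of 90 genes per the authors' deposited table.

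Metabolism_Lipid held 29 negative and 10 positive genes of the authors' deposited table. The very-long-chain enoyl-CoA reductase (LOC100891906), which elongates fatty acids, stood at -2.49 and the medium-chain acyl-CoA dehydrogenase Acadm (LOC105444714), which degrades them, at -2.03 per the authors' deposited table. The Dehydrogenase class was negative for 17 of 22 genes, led by a zeta-crystallin gene (LOC587399) at -4.16 with an adjusted p of 5.63e-23 per the authors' deposited table. A gene for retinol dehydrogenase 8 (LOC577528), named Prrdh, stood at -4.25 with an adjusted p of 2.01e-38 per the authors' deposited table. All 7 rows described as that enzyme were negative, with a median of -1.37, per the authors' deposited table.

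Defence against chemicals and oxidants followed with mostly negative values. Conjugating and reducing enzymes of the defensome, which make foreign compounds soluble, were negative for 13 of 15 genes of the authors' deposited table. Their sulfotransferases Sult1b1 (LOC100889865) and Sult1c (LOC115926094) stood at -2.92 and -3.48 per the authors' deposited table. The family of oxidative defence held 13 negative and 3 positive genes with a median of -1.21 per the authors' deposited table. Here the superoxide dismutases had opposite signs: the copper-zinc enzyme (LOC579361) stood at -0.68 and the mitochondrial manganese enzyme (LOC580111) at 0.92 per the authors' deposited table. Catalase (LOC100888042) stood at -0.60 per the authors' deposited table. A metallothionein gene (LOC115926005), whose product binds metal ions, stood at -1.64 with an adjusted p of 1.08e-25 per the authors' deposited table.

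Channels, transporters and receptors. Genes with the GO term ion transport were negative for 47 of 52, with a median of -1.26, per the authors' deposited table, and ligand-gated channels for 33 of 36. Much of that count is 1 annotation. A total of 23 rows carry the same name and the description of a neuronal acetylcholine receptor alpha-2 subunit, a cation channel opened by acetylcholine. All 23 were negative per the authors' deposited table, from -5.50 to -0.69, with a median of -2.01. The 2 lowest adjusted p-values of described genes belonged to this set, both 1.16e-46, with log2 fold changes of -3.52 (LOC115920492) and -2.45 (LOC115923474) per the authors' deposited table. The gene annotation types LOC115920492 as a long noncoding RNA, and the description names the row's own gene in only 1 of the 23 rows. The 23 rows are near-identical in annotation and reads may be divided among them, so the single values are uncertain. Receptors with other names had both signs: the alpha-4-like Nacha3 (LOC583276) stood at -1.61, the glutamate receptor Glur2 (LOC591929) at -1.45, the channel Trpc5 (LOC584852) at -1.67 and the alpha-10-like Nacha6 (LOC577316) at 0.86 per the authors' deposited table. The 6 rows described as TRPA1, a cation channel that responds to irritants and temperature in other animals, were negative with a median of -1.26 per the authors' deposited table.

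Solute carriers and transporters held 90 negative and 41 positive genes of the authors' deposited table. The zinc transporter ZIP12 (LOC115927289) stood at -1.15, the cystine and glutamate exchanger Slc7a11 (LOC115918368) at -2.18, the sodium-calcium exchanger Slc8 (LOC590169) at -1.17 and an organic cation transporter (LOC585536) at -2.80 per the authors' deposited table. The organic anion transporter Slco3a1 (LOC756186) had the lowest adjusted p of the positive ones, at 1.81 per the authors' deposited table. Proton-coupled folate transporters made up 7 rows, all negative, with a median of -2.11 per the authors' deposited table.

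G protein-coupled receptors were negative for 24 of 32 genes by the GO term, with a median of -1.18 per the authors' deposited table. The Nervous_Chemosensory class, which holds many of them, was negative for 15 of 17 genes with a median of -1.66 per the authors' deposited table. A receptor described as somatostatin receptor type 3 (LOC115922676) stood at -2.36, one described as a serotonin 1F-like receptor (LOC582418) at -2.20 and one named Npffr2L_4 (LOC579394) at -2.65 per the authors' deposited table. These descriptions are by similarity, and the ligands of the sea urchin receptors are not given in the files.

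Secreted enzymes, matrix and recognition proteins. Metalloproteases, which cut matrix proteins and growth factor precursors, were negative for 27 of 36 genes with a median of -1.31 per the authors' deposited table. Matrix metalloproteinases described as MMP-18 (LOC583799) and MMP-16 (LOC576018) stood at -2.65 and -3.18, with adjusted p of 1.05e-25 and 5.49e-18, per the authors' deposited table. Carboxypeptidase E (LOC115919038), a processing enzyme of secretory granules, stood at -2.43 per the authors' deposited table. The 5 rows named Astacin4 ran from -5.85 to -1.69 per the authors' deposited table, and the one with the lowest adjusted p (LOC115918061) stood at -2.50.

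Scavenger receptor cysteine-rich proteins, a large family of immune recognition proteins in sea urchins, were negative for 9 of 10 genes with a median of -1.73 per the authors' deposited table. Genes LOC373215 and LOC373213 of that family stood at -1.89 and -1.99, and the positive member (LOC575602) at 0.91, per the authors' deposited table. Enzymes that sulfate sugars and other substrates were negative for 22 of 27 genes by the GO term per the authors' deposited table. Hs2St (LOC100890874), which sulfates heparan sulfate, stood at -1.83 and carbohydrate sulfotransferase 15 (LOC105437523) at -1.93 per the authors' deposited table. Spicule matrix proteins, the organic part of the larval skeleton, were negative for all 12 genes of the authors' deposited table.

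Adhesion receptors with immunoglobulin and fibronectin domains were negative for 16 of 20 genes of the authors' deposited table. A neogenin gene (LOC115929882), a receptor of guidance cues, stood at -1.91 and Ncam (LOC586418), a cell-cell adhesion molecule, at 0.84 per the authors' deposited table. The broader family of extracellular matrix and adhesion proteins was split evenly, 30 to 30, per the authors' deposited table. Fibrillin-3 (LOC591161), a microfibril protein, stood at 1.28 with an adjusted p of 2.19e-17 and the laminin-like gene Lama1 (LOC579603), of the basement membrane, at 1.06 per the authors' deposited table. A gene described as fibrillin-2 (LOC105439752) stood at -2.55 and the laminin binding protein gene (LOC373183), whose product is also a ribosomal protein, at -1.30 per the authors' deposited table.

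**Figure D3:**
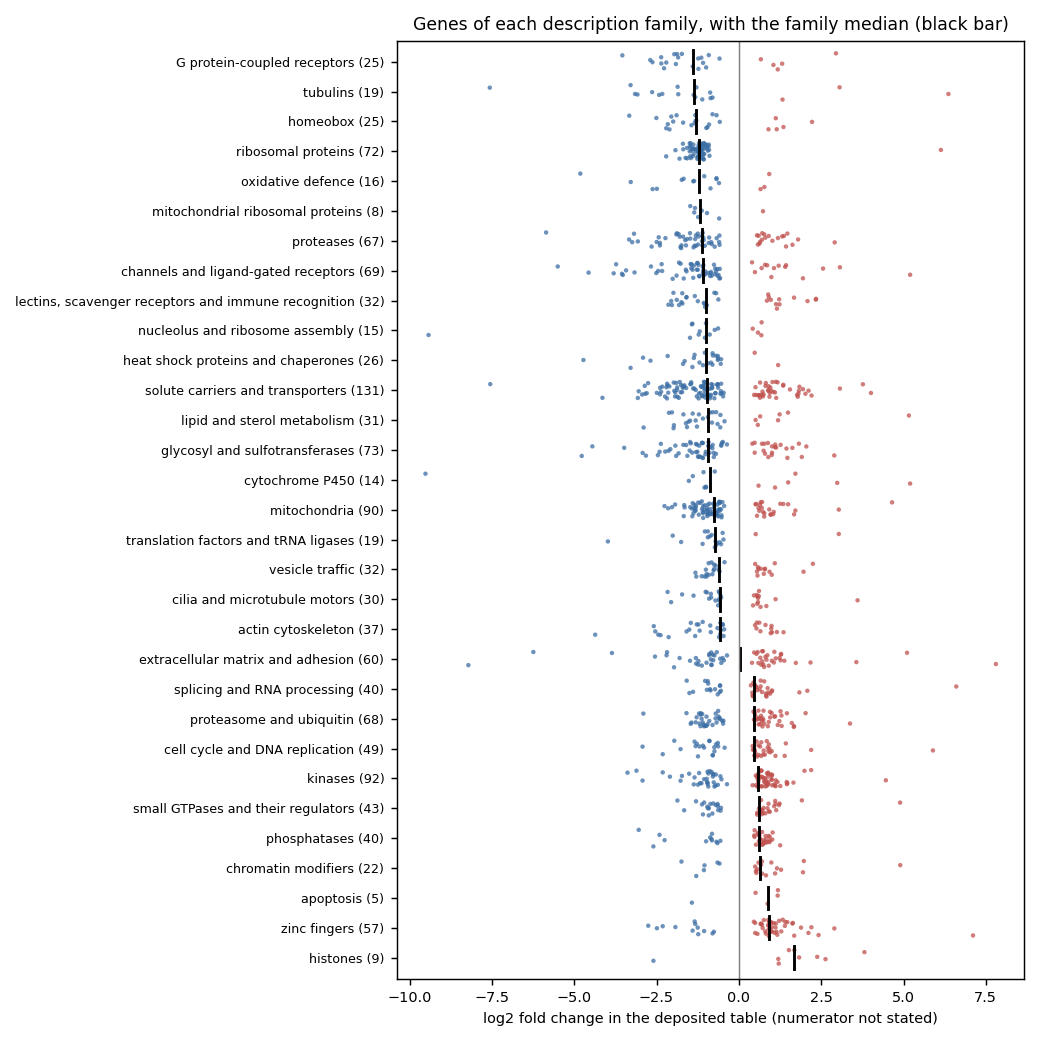
Log2 fold change of every gene in each description family with 5 or more genes of the deposited table, 1 point per gene, blue when negative and red when positive. The black bar is the family median, the number of genes is in parentheses, and points are spread vertically for visibility. Ribosomal proteins (median -1.21) and channels (median -1.09) lie left of 0, and zinc fingers (median 0.91) and histones (median 1.68) right of it.

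Zinc fingers, chromatin and histones. The ZincFinger class held 55 positive and 12 negative genes with a median of 0.90 per the authors' deposited table. Spalt (LOC575920), a developmental regulator of the Sall family, stood at 1.57 with an adjusted p of 5.49e-18 per the authors' deposited table. Genes named Z32 (LOC100888163) and Z141 (LOC100891950) stood at 1.68 and 1.63 per the authors' deposited table. The negative members included Osr (LOC575703), related to the odd-skipped regulators of patterning, at -2.51 and a gene described as PRDM14 (LOC589453) at -2.49 per the authors' deposited table. Of the 55 positive genes, 11 are copies of 1 annotation, a zinc finger protein 62 homologue, for which all 11 rows were positive between 0.91 and 7.11 per the authors' deposited table. Homeobox genes went the other way, with 20 negative and 5 positive, by the authors' deposited table. Beyond the aboral and apical members among them, Nk1 (LOC115924127) stood at -2.51 and the Pknox gene (LOC591795) at 1.35 per the authors' deposited table.

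Chromatin modifiers were positive for 16 of 22 genes with a median of 0.63 per the authors' deposited table. The histone methyltransferase Mll3 (LOC591084), which marks enhancers, stood at 1.10, the demethylase Kdm4c (LOC579470) at 0.82 and the remodelling helicase Chd3 (LOC753159) at 1.28 per the authors' deposited table. Sap18 (LOC115919211), a subunit of a histone deacetylase complex, stood at -1.74 per the authors' deposited table. The Histone heading held 10 positive and 2 negative genes of the authors' deposited table. It includes 5 copies of an H4 gene, all positive with a median of 2.38, and 2 copies of H1-delta at 1.52 (LOC373353) and 1.21 (LOC115923662) per the authors' deposited table. The variant macroH2A (LOC576250) stood at 1.09 and the late H2A gene (LOC575449) at -2.60 per the authors' deposited table. The libraries were made from polyA RNA, and most replication-dependent histone mRNAs of animals end without a polyA tail.

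Helicases and RNA processing. Genes of the class NucleicAcid_Helicase were positive for 18 of 23 with a median of 0.83 per the authors' deposited table. The class mixes helicases of RNA, DNA and chromatin. Its positive genes include Atrx (LOC578567) at 0.83 and RecQ5 (LOC590609) at 0.92 per the authors' deposited table. The RNA helicases Ddx27 (LOC577772) and Ddx3Y (LOC591321) were negative, at -0.95 and -0.58 per the authors' deposited table. Dhx38 (LOC581380) and Ascc3l1 (LOC586956), both helicases of the spliceosome, stood at 1.01 and 0.83 per the authors' deposited table. The spliceosome core protein Prp8 (LOC577459) stood at 0.77 per the authors' deposited table. Dicer (LOC586001), which cuts small RNA precursors, stood at 1.33 per the authors' deposited table. Over the whole family of splicing and RNA processing, 25 genes were positive and 15 negative per the authors' deposited table. Its negative members included the SR proteins Srsf2 (LOC579811) at -1.39, with an adjusted p of 3.09e-14, and Srsf6 (LOC115924018) at -1.58, which bind exons and help choose splice sites, and the 3′ splice site factor U2AF35 (LOC584228) at -1.03 per the authors' deposited table.

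Cell cycle, DNA replication and repair. The CellCycle class held 22 positive and 4 negative genes with a median of 0.59 per the authors' deposited table. E2f4 (LOC594596), a transcription factor of cell cycle genes, stood at 1.18, the centrosomal kinase Nek2 (LOC581714) at 1.46, the ubiquitin ligase subunit Skp2 (LOC574970) at 1.54 and Myb (LOC592751) at 1.12 per the authors' deposited table. Cdk2 (LOC585950) at -1.06, Myc (LOC373385) at -0.92 and cdk4 at -0.74, drivers of the entry into and passage through DNA synthesis, were among the 4 negative genes of the authors' deposited table. In the wider family of cell cycle and DNA replication, 42.9% of 49 genes were negative. Among its 16 genes with a log2 fold change of 1 or more in either direction the share was 68.8% per the authors' deposited table, against 60.4% of all table genes of that size, so the majority there depends on the size of change.

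The replicative helicase was negative. Of 7 rows for its subunits and a relative, a group assembled after the values were seen, 6 were negative: Mcm5 (LOC578688) stood at -1.31, 2 rows of Mcm6 at -0.90 (LOC577868) and -0.79 (LOC115918006), Mcm2 (LOC579797) at -0.89, Mcm3 (LOC589928) at -0.75 and Mcm4 (LOC582341) at -0.69 per the authors' deposited table. The positive row was Mcm9 (LOC580624), known in vertebrates for recombination repair, at 1.20 per the authors' deposited table.

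DNA repair genes had the opposite sign to the replicative helicase. Genes with the GO term DNA repair were positive for 15 of 17 with a median of 0.84 per the authors' deposited table. DNA ligase 3 (LOC581252), which seals nicks in excision repair, stood at 1.54, and a photolyase (LOC593941), which reverses ultraviolet damage with light, at 1.23 per the authors' deposited table. The related cryptochromes, flavoproteins of light sensing and the circadian clock, split, with Cry2 (LOC583959) at 1.26 and Cry1 (LOC580742) at -0.92 per the authors' deposited table. A wider repair group, assembled after the values were seen, held 19 positive and 3 negative genes with a median of 0.96 per the authors' deposited table. For double-strand breaks, the nuclease Mre11 (LOC593604) stood at 1.92, the break-site adaptor 53BP1 (LOC593800) at 1.46 and a gene named Brca1L (LOC755086) at 0.65 per the authors' deposited table. For base excision repair, DNA polymerase beta (LOC582628) stood at 1.11 and the scaffold Xrcc1 (LOC580530) at 0.69 per the authors' deposited table. Mdm2 (LOC100893740), the ubiquitin ligase that keeps p53 low in vertebrates, stood at 1.67 with an adjusted p of 2.02e-10 per the authors' deposited table. A gene described as DNA ligase 1 (LOC754321) stood at -1.86 and rows described as a Werner syndrome helicase at -1.28 (LOC115928693) and -1.23 (LOC105440762) per the authors' deposited table.

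The Apoptosis heading held 7 positive genes and 1 negative gene of the authors' deposited table. Bak (LOC588418), which permeabilises mitochondria, and Apaf1 (LOC591503), which assembles the caspase platform, stood at 1.18 and 1.19, and Bok (LOC576679), a relative of Bak, at -1.43 per the authors' deposited table. The positive genes also include Birc6 (LOC577866), whose description names the repeat of apoptosis inhibitors, at 0.62 per the authors' deposited table. Others, named TnfrsfL5, TnfsfL1 and TnfsfL2, are uncharacterized by description and stood at 1.58, 1.92 and 2.16 per the authors' deposited table.

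Signalling enzymes and the cytoskeleton. Genes with the GO term protein kinase activity were positive for 43 of 60, with a median of 0.60, per the authors' deposited table. Among the 21 of them with a log2 fold change of 1 or more in either direction, 57.1% were negative per the authors' deposited table, near the 60.4% of all table genes of that size. The metabolic kinase Lkb1 (LOC575272) stood at 1.09, the BMP receptor Alk2 (LOC590282) at 1.06 and the kinase Mekk1 (LOC590478), at the head of a MAP kinase cascade, at 0.96 per the authors' deposited table. The receptor kinases TIE1/2 and Ron (LOC589012) stood at -3.11 and -1.64 and Akt (LOC582897), which acts below growth factor receptors, at -1.37 per the authors' deposited table. Phosphatases were positive for 28 of 40 genes, among them the catalytic subunit of PP2A (LOC580852) at 0.76, while the receptor phosphatase gene LOC115928552 stood at -3.04 per the authors' deposited table. At a log2 fold change of 1 or more in either direction, 4 of the 7 remaining phosphatases (57.1%) were negative per the authors' deposited table, likewise near the 60.4% of all table genes of that size.

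Small GTPases and the proteins that switch them off leaned apart. The GTPase_Ras_Arf class was negative for 9 of 11 genes and the RhoGAP class positive for 10 of 12 per the authors' deposited table. Every positive RhoGAP gene stood under 1, the highest being Myo9B (LOC590989) at 0.99, per the authors' deposited table. The largest change of that class was negative, in a row named 3Bp1 (LOC100893623) at -1.82 per the authors' deposited table. The description of that row is monocarboxylate transporter 7, so its name and its description disagree. FAM13A (LOC587138) and Racgap1 (LOC115918778), which acts in cell division, stood at 0.98 and 0.74 per the authors' deposited table. The test of the difference between these classes was not made.

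Tubulins, the building blocks of microtubules and cilia, were negative for 16 of 19 genes with a median of -1.37 per the authors' deposited table. Kinesins, the motors that walk along them, were positive for 11 of 13 genes with a median of 0.60 per the authors' deposited table, with Kif2 (LOC754092), which shortens microtubules, at 1.11. Kinesins with a log2 fold change of 1 or more in either direction had both signs. Besides Kif2 they were a KIF28P row (LOC115920173) at 3.60 and KIF25 rows at -2.16 (LOC589837) and -2.06 (LOC581588) per the authors' deposited table. The tubulin count again holds copies: 8 rows share 1 alpha-1 annotation, all negative with a median of -1.61 per the authors' deposited table. The actin cytoskeleton family was negative for 25 of 37 genes, with thymosin beta (LOC373484), which binds monomeric actin, at -2.45 and cytoplasmic actin I (LOC752782) at -1.19 per the authors' deposited table. A row described as myosin-9 (LOC100888546) stood at 0.98 per the authors' deposited table.

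Several classes showed no lean. DNA_Replication held 10 positive and 9 negative genes per the authors' deposited table. The family of proteasome and ubiquitin genes held 36 positive and 32 negative, Adhesion as a heading 44 and 39, and Defensome_ABCTransporter 8 and 8 per the authors' deposited table.

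Copies and annotation. The names, descriptions, GO terms and classes of the table attach to transcript models, and 778 of the 3542 rows share a model with another row. Of the 337 shared models, 220 had only negative rows, 80 only positive rows and 37 rows of both signs per the authors' deposited table. In 12 models a row at -3 or below stood beside a row at 3 or above. Rows described as collagen alpha-1(III) gave -8.21 (LOC115925214) and 7.80 (LOC105441519), and rows of the haem exporter relative FlvcrL gave -4.74 (LOC105447207) and 6.07 (LOC115920604), per the authors' deposited table. These pairs were chosen after their values were seen. Whether allelic or assembly copies divide the reads differently in the 2 groups of embryos was not tested. The description names the row's own gene in 2177 rows and another gene in 1097, so a class can hold genes that are only similar to its name.

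**Figure D4:**
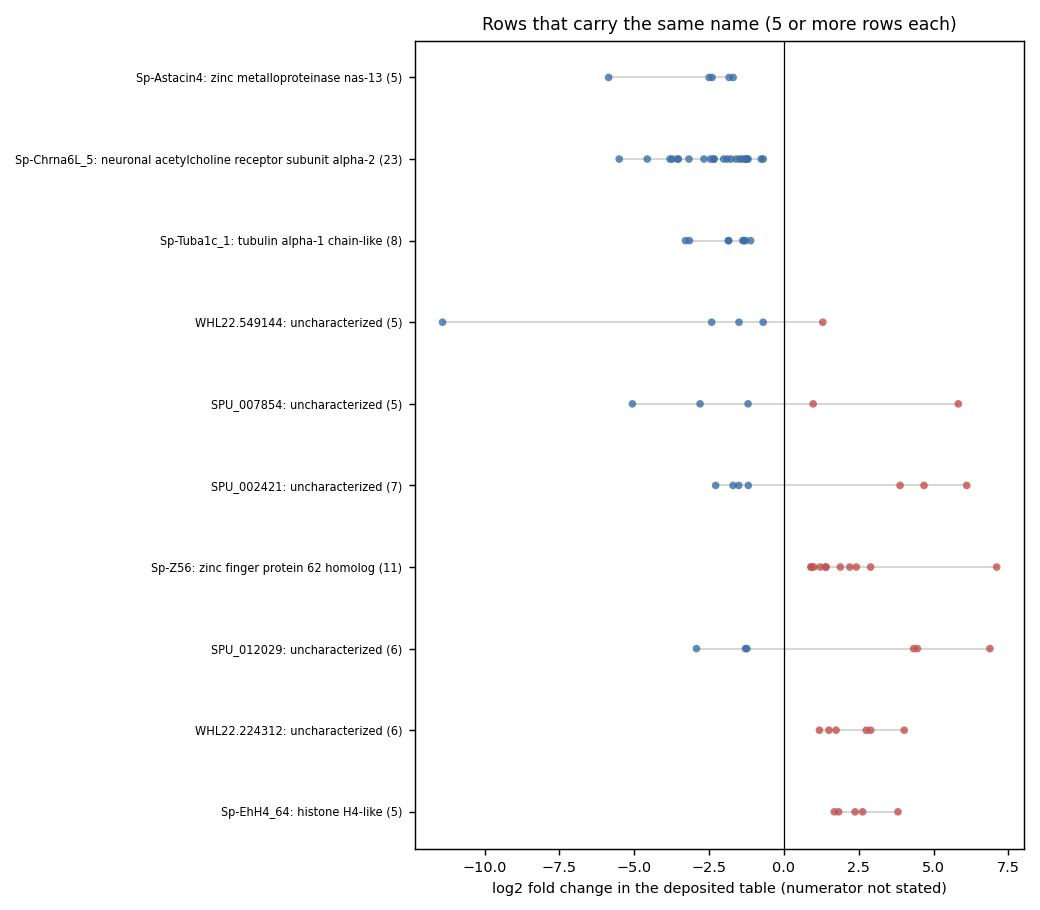
Log2 fold change of the rows that share 1 name, for each name with 5 or more rows of the deposited table, with the number of rows in parentheses. Points are rows, blue when negative and red when positive, and the grey line joins the lowest and the highest. The 23 acetylcholine receptor rows all lie left of 0 and the 11 zinc finger 62 rows all right of it, while some uncharacterized names have rows far to both sides.

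Gene span and gene type. The median span on the genome, introns included, was 16353.5 bp for positive and 12160 bp for negative genes (Spur_5.0 annotation). The positive share ran from 39.4% in the shortest of 10 equal bins of the authors' deposited table to 56.3% in the longest. Small noncoding RNA genes were few and of 1 sign: 4 snoRNA, 2 miRNA and 2 snRNA genes were positive and none negative per the authors' deposited table. They were read in polyA RNA, and whether the small RNAs themselves gave the reads was not tested. Long noncoding RNAs were divided like the whole, 137 negative and 127 positive. Among the 909 genes with no usable description, 530 were positive and 379 negative per the authors' deposited table. Genes with a log2 fold change of 5 or more in either direction were mostly of that kind: 125 genes passed, 85 positive and 40 negative, and 31 of them have a description.

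**Figure D5:**
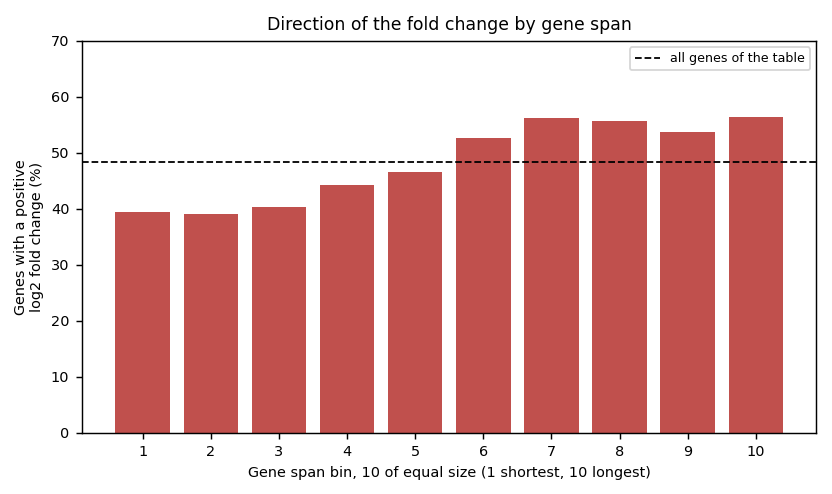
Share of genes with a positive log2 fold change in each of 10 equal bins of the deposited table by gene span, from the shortest (1) to the longest (10); the dashed line is the share over all genes, 48.4%. The 5 shorter bins lie under the line, between 39.0% and 46.6%, and the 5 longer ones over it, between 52.5% and 56.3%.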

How the data were processed

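RNA of 3 brachyury morphant and 3 wild type control libraries was compared by the authors. DESeq2 1.28.1, Salmon 0.11.3 and Trimmomatic 0.38 are named in the submitters' processing notes, without role or order. Each log2 fold change is as the authors deposited it, and per the file headers the numerator is not stated. The p-value and adjusted p-value were likewise deposited by the authors, with no gene above an adjusted p of 0.05. The adjusted p does not follow the order of p: between neighbours by p it falls in 46.3% of cases. Depth, spread and number of genes tested are unknown, so no gene or class was tested again here. The ChIP libraries, and the overlap of classes with their peaks, are not analysed here.

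Genes were grouped by the functional class, GO and PFAM columns (groups of 10 or more genes), by 35 families of words in the name and description columns, and by shared name. Each group is given by its count in each direction and its median. Gene spans and types came from the RefSeq gene table of Spur_5.0, which matched all 3542 IDs. Named genes are brachyury, the 10 lowest adjusted p per direction, and per group up to 4 per direction by adjusted p plus the largest change, 1 copy per name. Other genes, such as members of the groups assembled later, the superoxide dismutases, catalase and genes called exceptions, were named outside that rule, after their values were seen. The comparison, its genes and its lists were chosen with earlier results of these data known. The PFAM groups, shared names, gene types, spans, the check of descriptions and 5 further families were added after seeing the data. A few genes are not reported here. The counting was tested on simulated rows. Each group was recounted under other choices: a stricter adjusted p (0.01), a log2 fold change of 1 or more in either direction, 1 gene per name or per transcript model, described genes alone, rows whose description names the own gene, descriptions without names, and genes with a single class. Scripts ran in Python 3.11.15 with matplotlib 3.10.9, scipy 1.17.1, pandas 2.3.3 and numpy 2.4.6.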

Additional observations from a re-analysis of the deposited data

How the results depend on the processing

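No paired analysis was possible because the columns carry no value per library, and leaving out a replicate could not be run for the same reason. Of the 1714 positive and 1828 negative genes, 986 of the positive genes of the table passed an adjusted p of 0.01, and 756 positive and 1154 negative genes had a log2 fold change of 1 or more in either direction. Rows whose description names the own gene held 1033 negative genes. The negative share, 51.6% of all genes, was 55.4% at an adjusted p under 0.01, 60.4% at a log2 fold change of 1 or more in either direction, 55.0% among described genes, 48.8% with 1 gene per name, 48.9% with 1 row per transcript model and 47.5% among rows whose description names the own gene. Which sign has the small majority over the whole table therefore depends on how copies are counted, and the cause was not tested. The number of functional classes with a negative majority, 31, lay between 29 and 33 under the alternatives, of GO groups, 62 of 107, between 53 and 68, and of families, 20 of 31, between 18 and 24. The majority sign turned in 11 GO groups, 3 functional classes and 1 family when only rows describing their own gene were kept, in 12, 2 and 3 at a log2 fold change of 1 or more in either direction, and in at most 4 of each kind under every other alternative. An example is GTPase activity, from 66.7% to 30.0% negative under the choice of rows describing their own gene, which also turned the DNA_Replication class to 58.3% negative. Without values per library and with unknown depth, no spread between libraries and no detection limit is given.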

Other observations

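Some proteins of tRNA splicing, which cuts out introns and joins the tRNA pieces, stood on the positive side. The tRNA-splicing ligase RtcB (LOC588300), which in mammals also joins the Xbp1 mRNA during the endoplasmic reticulum stress response, had a log2 fold change of 2.48 and an adjusted p of 1.69e-20, the lowest of all described positive genes per the authors' deposited table. Archease (LOC592578), the RtcB cofactor, stood at 1.65 with an adjusted p of 1.02e-12 per the authors' deposited table. The 2′-phosphotransferase Trpt1 (LOC581663), of the other known joining route, stood at 2.35 and the endonuclease subunit Sen15 (LOC100892594) at 2.00 per the authors' deposited table. Over the group of tRNA processing and modification, assembled after these values were seen, 6 of 7 genes were positive. The exception was Wdr4 (LOC587020), of a tRNA methyltransferase, at -1.41 per the authors' deposited table.

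A group of antiviral and NACHT proteins, also assembled after the values were seen, held 10 positive and 4 negative genes with a median of 1.23 per the authors' deposited table. Not all of its members have a known antiviral role. The whole ImmuneSystem heading went the other way, with 40 negative and 23 positive genes and a median of -1.07 per the authors' deposited table. The 2′,5′-phosphodiesterase PDE12 (LOC763013), which degrades an interferon-induced messenger in mammals, stood at 2.69 and the RIG-I relative DHX58 (LOC577076), a sensor helicase of double-stranded RNA, at 1.84 per the authors' deposited table. Major vault protein (mvp) stood at 2.09 with an adjusted p of 2.08e-15 per the authors' deposited table. Genes described as the NACHT proteins Nwd1 (LOC580977) and NLRC5 (LOC100893882) stood at 2.08 and 2.34 per the authors' deposited table. The 4 negative genes of the assembled group were rows named Nlr97 (LOC100892816) at -2.14, Nlr148 (LOC586255) at -1.82 and Nlr129 (LOC105443456) at -1.34, and a toll-like receptor row (LOC115920561) at -0.97, per the authors' deposited table. Secretagogin (LOC579873), a calcium sensor of secretory cells, stood at 3.05 with an adjusted p of 8.17e-13 per the authors' deposited table.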
